A study of Homo sapiens with 4 samples.

Results

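The genes described here encode splicing factors and RNA helicases. They were taken by their symbols: protein-coding rows of the deposited table whose symbol begins with HNRNP, SRSF, SF3, SNRP, PRPF or U2AF, with RBM, DDX or DHX and a number, together with ZRANB2, which the study also followed on its own. The rule found 78 of 4208 genes, and 1 DHX gene was left out by the rule itself. No U2AF gene had a row. The 78 genes were 6 SNRP, 5 SF3, 7 PRPF, 4 SRSF, 15 HNRNP, 16 RBM, 19 DDX and 5 DHX genes and ZRANB2.

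Splicing removes introns from pre-mRNA in the spliceosome, which is assembled from small nuclear ribonucleoproteins (snRNPs) and their partner proteins on each intron. SNRP genes encode proteins of the snRNP cores, SF3B genes the complex that binds the branch point, and PRPF genes further snRNP and spliceosome proteins. SR proteins (SRSF) and hnRNP proteins bind exons and introns and steer which splice sites are used, and DEAD-box and DEAH-box helicases (DDX, DHX) remodel RNA in splicing, ribosome assembly, translation and decay. The 3′ end of an mRNA forms when the pre-mRNA is cleaved at the polyadenylation site (PAS), usually a short way after a hexamer such as AATAAA. Nuclear RNA that continues past the PAS gives reads downstream of it, and reads upstream of it come from the end of the transcript itself.

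A549 cells, a line from a human lung tumor, were either irradiated with UV (254 nm, 40 J/m2) and left to recover for 16 h (UV+) or not irradiated (UV−), with 2 libraries per condition. Nuclear RNA depleted of ribosomal RNA was read on 1 end for 100 nt from strand-specific libraries. For each gene the table holds normalized reads, that is reads divided by 1 size factor per library, in the 500 nt upstream and the 500 nt downstream of the PAS. The comparison asks how much RNA is found past the PAS, relative to RNA before it, in UV+ and in UV− cells.

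The p-values measure the spread between these 2 libraries per condition, and in bulk RNA fewer cells with a transcript and less transcript per cell cannot be told apart. An exact test of 2 against 2 libraries cannot fall below p = 0.33, so limma, which shares the spread across genes, was used for single genes. The 78 genes held 6213 and 5134 reads upstream in the UV+ libraries, against 3999 and 7260 in the UV− libraries, and 2608 and 2039 reads downstream in UV+, against 1108 and 1798 in UV−. The median gene of the 78 had 18 and 16.5 downstream reads in UV+ and 7 and 11 in UV−, so that many single-gene ratios rest on few reads. Of 12 marker genes of A549 cells 8 had a row in the table, and of 11 markers of blood, fibroblasts and endothelium 0 had one.

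The letters before each PAS were searched for the known signals. A search of the last 40 nt before the PAS, on the transcript strand, for AATAAA and, where it was absent, for ATTAAA found the first in 44 of the 78 genes (56.4%) and the second in 15 (19.2%), and neither in 19 (24.4%). Over all 4205 rows with a position the shares were 55.9%, 14.6% and 29.5%. Of the 11 genes whose downstream/upstream ratio was higher in UV+ at an unadjusted p under 0.05, 9 held AATAAA, 1 held ATTAAA (SNRPA) and 1 neither (SF3B5). The last 30 nt before the PAS are shown for 8 of these genes, since the reads of each are counted from this point, in hg19 coordinates and from the GRCh37 primary assembly, with the hexamer in capitals.

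ZRANB2, chr1:71528974-71529003, minus strand: agaAATAAActagagatttttaaactctga
SRSF7, chr2:38970741-38970770, minus strand: acAATAAAtctgcagagattgaacaaataa
HNRNPH3, chr10:70102924-70102953, plus strand: tAATAAAtgtcattgtgggagataatagta
DDX21, chr10:70744796-70744825, plus strand: tataccatAATAAAgatagtaatacttgat
DDX17, chr22:38879443-38879472, minus strand: aggtataAATAAAaacactgttgacaataa
DDX23, chr12:49223539-49223568, minus strand: agAATAAAtacatgaatattaagactgtta
RBM42, chr19:36128558-36128587, plus strand: ccagtttcAATAAAtttacgttcatttcca
SF3B5, chr6:144416018-144416047, minus strand: ttttccataaagtttagaaatcgttcagtc

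In 7 of the 8 stretches the hexamer stands within the 30 nt, and SF3B5 shows none of either hexamer. Of the called genes not shown, DDX3Y holds its hexamer within the last 30 nt. Those of SNRPA and DDX50 start 38 and 33 nt before the PAS, outside such a stretch. A hexamer match describes these letters only. The PAS of the table lay at an annotated exon end of the same gene in GENCODE 44 for 27 of the 78 genes.

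Taken as a sum, the 78 genes had more RNA past the PAS in UV+ cells. Their downstream reads came to 42.0% and 39.7% of their upstream reads in the UV+ libraries, against 27.7% and 24.8% in the UV− libraries, and the conditions did not overlap. The same percentage over all 4208 genes was 19.2% and 19.6% in UV+ and 19.4% and 17.9% in UV−. The median gene of the 78 had a log2 downstream/upstream ratio of -1.59 and -1.27 in the UV+ libraries and of -2.09 and -1.99 in the UV− libraries. For the median of all genes it was -1.22 and -1.22 in UV+ and -1.61 and -1.62 in UV−. On the log2 scale with a pseudocount of 1, the median change of the ratio (UV+ over UV−) was 0.74 for the 78 genes and 0.38 for all genes. Split by window, the median change of the 78 genes was -0.10 upstream and 0.68 downstream, beside -0.24 and 0.24 for all genes. Scaling the libraries with TMM factors moved the median of all genes to -0.05 upstream and 0.40 downstream, and with it the upstream median of the 78 genes turned to 0.09 and their downstream median was 0.87.

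For single genes, the downstream/upstream ratio was higher in UV+ for 11 of the 78 (14.1%) and lower for 0 at an unadjusted p under 0.05, the threshold of the study, where 10.9% of all genes were higher and 2.69% lower. At a Benjamini-Hochberg adjusted p under 0.05 limma called 0 of the 78 genes and 0.0% of all genes in either direction. By edgeR 16 of the 78 were higher (11.0% of all genes) and 0 lower (2.97%) at an unadjusted p under 0.05, and 1 was higher (0.903%) and 0 lower (0.143%) at an adjusted p. By DESeq2 12 were higher (8.98%) and 0 lower (2.57%) at an unadjusted p, and of the 43 genes it gave an adjusted p, 2 were higher (2.44%) and 0 lower (0.726%). The ratio was above that of every UV− library in both UV+ libraries for 41 of the 78 genes (32.6% of all genes) and below for 4 (12.9% of all genes). The 11 genes were SNRPA, SF3B5, SRSF7, HNRNPH3, RBM42, DDX3Y, DDX17, DDX21, DDX23, DDX50 and ZRANB2. Without ZRANB2, which no name group holds, they were 10. No PRPF and no DHX gene was among them. Of the 11, SNRPA, SF3B5, DDX23, RBM42, DDX50 and DDX3Y held fewer than 10 downstream reads over the UV− pair. They met the filter of the table downstream through UV+ alone, where they are high. Their rises are thus not independent of that filter. Both edgeR and DESeq2 also called PRPF39, SNRPB and SRSF5 higher at an unadjusted p under 0.05, and edgeR also called HNRNPK, RBM15 and SRSF9. Calls of genes given below are those of limma unless stated. The SE of the ratio's log2 change ran from 0.63 to 1.25 over the 78 genes. The smallest change called by limma was 1.55 (SRSF7), and a change of 2.05 (PRPF19) was not called. Changes of such size or smaller could thus go undetected in a single gene at this depth. Leaving out UV+ replicate 2 or either UV− library lowered the count. Without UV+ replicate 2 the share of the 78 genes called higher was below that of all genes. With 1 library left out, the median ratio change of the 78 genes was 0.634 to 0.685, beside 0.364 to 0.445 for all genes. The ratio calls of HNRNPH3, SRSF7 and DDX21 were lost whichever library was left out. Their changes then ran from 1.528 to 2.18, 1.495 to 1.596 and 1.245 to 2.146, in that order. Each other ratio call but that of SNRPA was lost without 1 or more of the libraries.

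**Figure D1:**
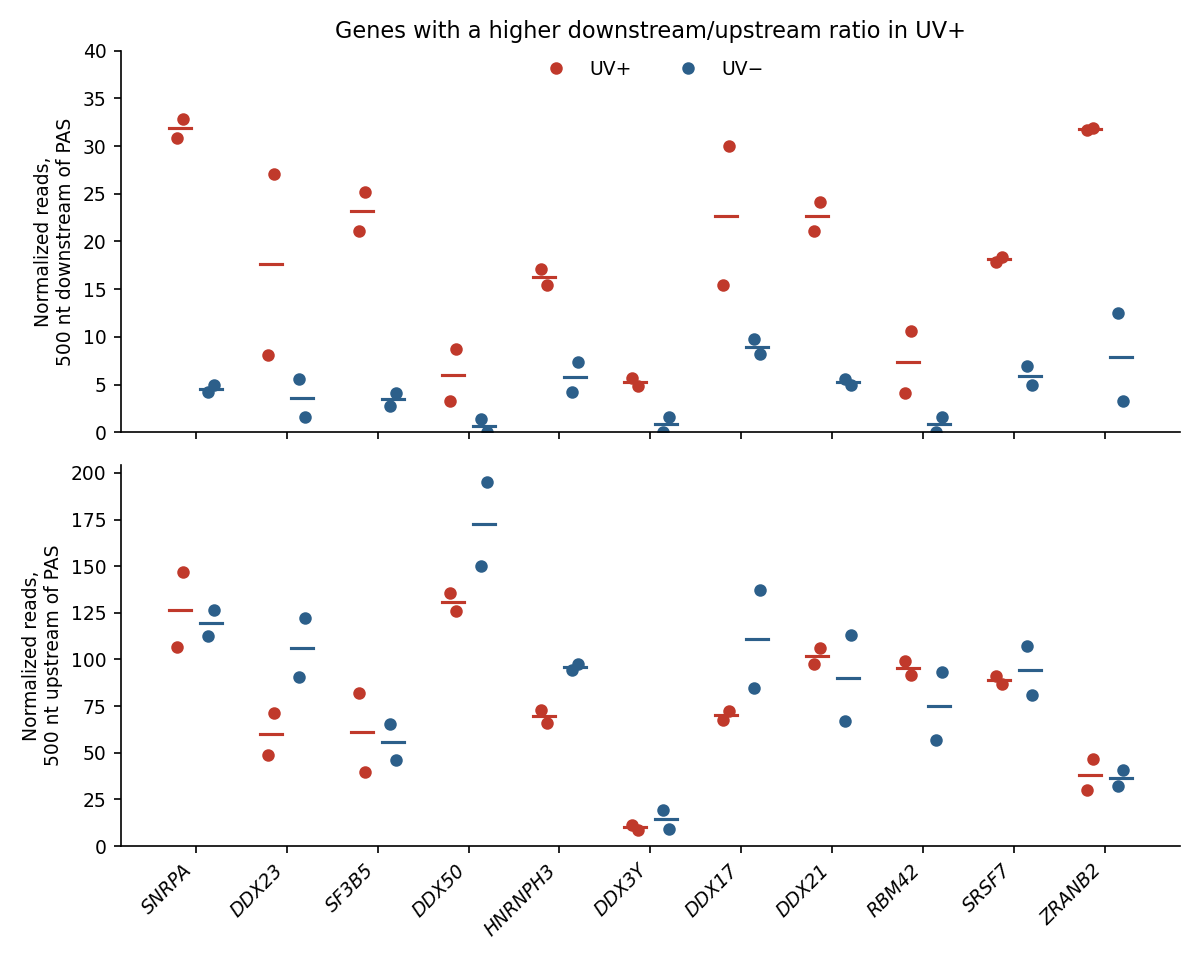
Normalized reads in the 500 nt downstream (upper panel) and upstream (lower panel) of the PAS for the 11 genes with a higher ratio in UV+, sorted by p. Each point is a library, UV+ left of UV−, and bars are means of 2 libraries. Downstream, every UV+ point lies above the UV− points of the same gene, whereas upstream the points of most genes lie at similar heights, with DDX23, DDX17, DDX50 and HNRNPH3 lower in UV+.

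ZRANB2 encodes a zinc-finger protein with an SR-like region that binds splice-site-like RNA. It had 31.7 and 31.9 normalized reads downstream in the UV+ libraries, against 12.5 and 3.28 in the UV− libraries. Upstream the values were 30.1 and 46.4 in UV+, against 32.0 and 41.0 in UV−. The UV+ libraries agreed closely downstream, the UV− libraries differed from each other, and both UV+ values lay above both UV− values, while upstream the conditions overlapped. The downstream window rose by 2.11 ± 0.59 on the log2 scale (SE, limma adjusted p = 0.032), the upstream change was 0.04 ± 0.37 (adjusted p = 0.94) and the ratio changed by 2.06 ± 0.86 (limma unadjusted p = 0.049, adjusted p = 0.36). The ratio passed without UV− replicate 1 but not without any other library, and without UV− replicate 2 its change was 1.06 (unadjusted p = 0.299) and the downstream change 1.28 (limma adjusted p = 0.205). No annotated exon lay in the downstream window.

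Among the SNRP genes, SNRPA had the smallest p of the 78 in the ratio. It encodes a protein of the U1 snRNP that also binds its own pre-mRNA near the PAS and restrains its polyadenylation. SNRPA had 30.9 and 32.9 normalized reads downstream in the UV+ libraries, against 4.17 and 4.92 in the UV− libraries. Upstream it had 106 and 147 in UV+, against 113 and 126 in UV−. Downstream the UV+ libraries stood far above the UV− libraries, and upstream the conditions overlapped. The downstream window rose by 2.57 ± 0.50 (limma adjusted p = 0.01) and the ratio was higher by 2.50 ± 0.64 (unadjusted p = 0.0061, adjusted p = 0.31). It was the sole gene of the 11 whose ratio call held in each of 13 alternatives, leaving out any library included, where its change ran from 2.31 to 2.69.

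SNRPB encodes SmB, a protein of the Sm ring around snRNAs. It had 135 and 92.9 normalized reads downstream in the UV+ libraries, against 33.4 and 23.8 in the UV− libraries, a rise of 1.95 ± 0.33 with the smallest downstream p of the 78 (limma adjusted p = 0.0056). Before the PAS it held 119 and 114 normalized reads upstream in the UV+ libraries, against 62.6 and 86.1 in the UV− libraries (change 0.66 ± 0.27, limma adjusted p = 0.074). The ratio change of 1.29 ± 0.71 did not pass by limma (unadjusted p = 0.11), while edgeR and DESeq2 called it higher. In both windows each UV+ value of SNRPB lay above each UV− value. Of the other Sm genes, SNRPD2 and SNRPF had few downstream reads: SNRPD2 had 4.07 and 4.84 in UV+, against 0 and 0.82 in UV− (change 2.01, adjusted p = 0.08). SNRPF had 5.69 and 15.5 in UV+, against 2.78 and 0.82 in UV− (change 2.00, adjusted p = 0.11). SNRPD1, whose downstream window was annotated exon throughout, had 14.6 and 21.3 downstream in UV+, against 19.5 and 27.1 in UV−. SNRPG had the highest downstream level relative to upstream of the SNRP genes, with 53.7 and 55.1 downstream in UV+, against 29.2 and 41.0 in UV−, beside 7.32 and 2.90 upstream in UV+, against 2.78 and 1.64 in UV−. An exon of PCYOX1 on the other strand lies in that window, and the strand setting of the authors' count was not given in the sources used here. Over the 6 SNRP genes the median change was 1.28 in the ratio, 0.60 upstream and 1.98 downstream, with 5 of 6 above 0 in each. Of all 4208 genes 2717 were above 0 in the ratio, 1802 upstream and 2321 downstream.

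The 5 SF3 genes had a median ratio change of 0.54, and 2 of them were called, in different measures. SF3B5, a small subunit of the SF3b complex and a short gene (chr6:144416018-144416754), had 21.1 and 25.1 normalized reads downstream in the UV+ libraries, against 2.78 and 4.10 in the UV− libraries. Upstream it had 82.1 and 39.7 in UV+, against 65.4 and 45.9 in UV−. Its downstream window rose by 2.45 ± 0.59 (limma adjusted p = 0.02), the upstream conditions overlapped, and the ratio was higher by 2.40 ± 0.77 (unadjusted p = 0.017, adjusted p = 0.32). SF3B1, the large subunit that holds the branch point, fell before its PAS, with 277 and 272 normalized reads upstream in the UV+ libraries, against 678 and 564 in the UV− libraries, the most upstream reads of the SF3 group. The fall was 1.17 on the log2 scale (SE 0.20, limma adjusted p = 0.00092), the smallest upstream p of the 78 genes. SF3B1 had 19.5 and 17.4 downstream in UV+, against 25.1 and 33.6 in UV−, in a window that is annotated exon throughout (change -0.63 ± 0.40, adjusted p = 0.26), and its ratio change was 0.54 ± 0.66 (unadjusted p = 0.44). SF3B3 had the highest downstream level relative to upstream in UV− of this group, and its downstream reads came to 19.6% in UV+ and 23.7% in UV− of the upstream reads. SF3B3, SF3B4 and SF3B6 were called in neither window nor in the ratio.

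No PRPF gene was called by limma in any of the 3 measures, but edgeR and DESeq2 called the ratio of PRPF39 higher. The median changes were 0.35 in the ratio, 0.69 downstream and -0.11 upstream, which was 0.09 with TMM factors. PRPF39, a U1 snRNP partner with the most upstream reads of the group, had 49.6 and 61.9 normalized reads downstream in the UV+ libraries, against 36.2 and 28.7 in the UV− libraries. Upstream it had 139 and 159 in UV+, against 196 and 197 in UV−. The conditions of PRPF39 overlapped in neither window, and the ratio change was 1.17 ± 0.65 (unadjusted p = 0.12 by limma), with sense exon throughout the downstream window and an exon of FKBP3 on the other strand. PRPF18, a factor of the later splicing step, had more reads past the PAS than before it in both conditions (downstream as a share of upstream, 166% in UV+ and 192% in UV−). PRPF19, the scaffold of a spliceosomal ubiquitin ligase complex, had the highest ratio change of the group, 2.05 ± 1.09 (unadjusted p = 0.1), with 10.6 and 8.71 downstream in UV+, against 0 and 6.56 in UV−.

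Of the 4 SR protein genes (median changes of 1.47 in the ratio, -0.34 upstream and 1.06 downstream), SRSF7 was called in the ratio and SRSF5 downstream. SRSF7, an SR protein that acts in splicing and mRNA export, had 17.9 and 18.4 normalized reads downstream in the UV+ libraries, against 6.96 and 4.92 in the UV− libraries. Upstream it had 91.1 and 87.1 in UV+, against 107 and 81.2 in UV−. The UV+ values were close to each other and above both UV− values downstream, and overlapped with them upstream. The ratio of SRSF7 was higher by 1.55 ± 0.63 (limma unadjusted p = 0.045, adjusted p = 0.36), and its downstream change of 1.48 ± 0.55 had an adjusted p of 0.077. SRSF5 had 23.6 and 40.6 normalized reads downstream in the UV+ libraries, against 5.57 and 6.56 in the UV− libraries, a rise of 2.18 ± 0.51 (limma adjusted p = 0.018). Its upstream conditions overlapped (64.2 and 28.1 in UV+, against 39.0 and 33.6 in UV−). Its ratio change of 1.96 ± 0.84 missed the threshold by limma (unadjusted p = 0.053), while edgeR and DESeq2 called it higher. SRSF9 had 33.3 and 34.8 downstream in UV+, against 23.7 and 19.7 in UV−, and 74.8 and 36.8 upstream in UV+, against 90.5 and 89.4 in UV− (ratio change 1.40 ± 0.71, unadjusted p = 0.091). SRSF11, with the most upstream reads of the group, had 6.50 and 4.84 downstream in UV+, against 18.1 and 16.4 in UV−, in an exonic window (change -1.46 ± 0.56, adjusted p = 0.085), and 139 and 200.2 upstream in UV+, against 260.2 and 249 in UV−.

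The 15 HNRNP genes had a median change of 0.84 in the ratio, -0.35 upstream and 0.31 downstream. Of their ratio changes 13 of 15 were above 0, beside 2717 of 4208 over all genes. HNRNPH3, of the hnRNP H family that binds G-rich RNA, was the one of the 15 called in the ratio by limma. It had 17.1 and 15.5 normalized reads downstream in the UV+ libraries, against 4.17 and 7.38 in the UV− libraries, and upstream 73.2 and 65.8 in UV+, against 94.6 and 97.6 in UV−. Downstream both UV+ libraries were higher and upstream both were lower than the UV− libraries, and the ratio was higher by 1.85 ± 0.66 (limma unadjusted p = 0.026, adjusted p = 0.33), whereas neither window was called alone (adjusted p = 0.19 upstream and 0.11 downstream). An exon of RUFY2 on the other strand lies in its downstream window, so that its reads there cannot be given to 1 gene without the strand setting.

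HNRNPA3 and HNRNPA2B1, core hnRNP proteins that package and carry mRNA, rose downstream. HNRNPA3 had 113 and 131 normalized reads downstream in the UV+ libraries, against 45.9 and 56.6 in the UV− libraries (change 1.24 ± 0.27, limma adjusted p = 0.015). HNRNPA2B1 had 206 and 162 normalized reads downstream in the UV+ libraries, against 87.7 and 96.8 in the UV− libraries (change 0.98 ± 0.25, adjusted p = 0.024). Upstream the conditions of HNRNPA3 overlapped (44.7 and 27.1 in UV+, against 36.2 and 28.7 in UV−), and HNRNPA2B1 had 255 and 215 upstream in UV+, against 186 and 189 in UV−. Annotated exon of HNRNPA2B1 itself covers 270 nt of its downstream window. The ratio was called for neither (unadjusted p = 0.16 and 0.34). In HNRNPA3 the window past the PAS held more reads than the window before it in every library.

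The same order of the windows held in HNRNPA1 and HNRNPR. HNRNPA1, an abundant hnRNP protein of splicing and export, had 148 and 127 normalized reads downstream in the UV+ libraries, against 198 and 202 in the UV− libraries, in a window that is annotated exon. Upstream it had 41.5 and 20.3 in UV+, against 44.5 and 50.9 in UV− (ratio change 0.15 ± 0.68). HNRNPR had 58.5 and 33.9 downstream in UV+, against 62.6 and 63.2 in UV−, and 11.4 and 0.967 upstream in UV+, against 15.3 and 13.1 in UV−, the largest downstream level relative to upstream of the group in UV−. Such genes with more reads past the PAS than before it, on summed normalized reads, were 15 of the 78 in UV+ (19.2%, beside 23.2% of all genes) and 11 in UV− (14.1%, beside 15.8% of all genes). HNRNPH1, with the most upstream reads of the group, had 318 and 214 upstream in UV+, against 299 and 368 in UV−, and 40.7 and 24.2 downstream in UV+, against 23.7 and 20.5 in UV− (ratio change 0.84 ± 0.65, unadjusted p = 0.24).

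The 16 RBM genes, RNA-binding proteins of many roles, had the smallest median ratio change of the name groups, 0.09, with 8 above and 8 below 0, and the median was -0.04 by edgeR and -0.01 by DESeq2. RBM42 was the 1 called in the ratio, on very few downstream reads. It had 4.07 and 10.6 normalized reads downstream in the UV+ libraries, against 0 and 1.64 in the UV− libraries, and upstream 99.2 and 91.9 in UV+, against 57.0 and 93.5 in UV− (ratio change 1.86 ± 0.75, limma unadjusted p = 0.043). The call of RBM42 was lost without UV+ replicate 2 (change 1.20, limma unadjusted p = 0.184), with a pseudocount of 5 (change 0.69, unadjusted p = 0.189) and by DESeq2 (unadjusted p = 0.0578). RBM48 and RBM22 rose before the PAS. RBM48, a protein of the minor spliceosome, had 41.5 and 44.5 normalized reads upstream in the UV+ libraries, against 18.1 and 13.9 in the UV− libraries (change 1.38 ± 0.40, limma adjusted p = 0.019). RBM22, of the catalytic core of the spliceosome, had 108 and 167 normalized reads upstream in the UV+ libraries, against 62.6 and 77.9 in the UV− libraries (change 0.94 ± 0.28, adjusted p = 0.023). Without UV+ replicate 2 the change of RBM22 was 0.62 (limma adjusted p = 0.159). In both genes every UV+ library exceeded every UV− library, and their ratio changes were -0.02 and 0.98.

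RBM27, with its relative RBM26 part of a nuclear RNA decay pathway, was the single gene of the 78 that fell downstream at an adjusted p under 0.05, out of 22 with a negative change. It had 12.2 and 0.967 normalized reads downstream in the UV+ libraries, against 29.2 and 27.9 in the UV− libraries, a fall of 2.54 on the log2 scale (SE 0.80, limma adjusted p = 0.046). The UV+ libraries were far apart: the change was -1.16 (adjusted p = 0.134) without UV+ replicate 2 and -3.91 (adjusted p = 0.0806) without UV+ replicate 1. RBM26 had 0 and 3.87 downstream in UV+, against 19.5 and 10.7 in UV− (change -2.81 ± 0.91, adjusted p = 0.052). Before the PAS, RBM27 had 9.76 and 1.94 upstream in UV+, against 13.9 and 27.9 in UV−. RBM26 had 3.25 and 12.6 upstream in UV+, against 18.1 and 27.1 in UV−, and in both genes each UV+ value lay below each UV− value (changes -1.89 ± 0.72 and -1.61 ± 0.64, adjusted p = 0.06 and 0.07). RBM26 and RBM27 are the longest of the 78 genes, at 87354 and 85622 nt.

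Of the 19 DDX genes, the largest name group, 5 were called higher in the ratio, where 10.9% of all genes were. Their median change was 0.95 in the ratio and 1.26 downstream, beside 0.38 and 0.24 for all genes. DDX23, the human counterpart of yeast Prp28 that exchanges U1 for U6 at the 5′ splice site, had 8.13 and 27.1 normalized reads downstream in the UV+ libraries, against 5.57 and 1.64 in the UV− libraries. Upstream it had 48.8 and 71.6 in UV+, against 90.5 and 122 in UV−. Its upstream window fell by 0.82 on the log2 scale (SE 0.30, limma adjusted p = 0.049), the downstream change was 1.94 ± 0.79 (adjusted p = 0.1), and the ratio change was the largest of the 78, 2.76 ± 0.84 (unadjusted p = 0.014, adjusted p = 0.32). The conditions did not overlap in either window, although the UV+ libraries were far apart downstream.

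DDX21 and DDX50 are nucleolar paralogs that act in ribosomal RNA production and lie next to each other on chromosome 10. DDX21 had 21.1 and 24.2 normalized reads downstream in the UV+ libraries, against 5.57 and 4.92 in the UV− libraries, a rise of 1.92 ± 0.53 (limma adjusted p = 0.03). Its upstream conditions overlapped, with 97.6 and 106 in UV+, against 66.8 and 113 in UV−, and the ratio change was 1.70 ± 0.68 (unadjusted p = 0.042). DDX50 had 3.25 and 8.71 normalized reads downstream in the UV+ libraries, against 1.39 and 0 in the UV− libraries. Upstream it had 136 and 126 in UV+, against 150.3 and 195 in UV− (ratio change 2.44 ± 0.85, limma unadjusted p = 0.025). Without UV− replicate 2 its ratio change was 1.63 (limma unadjusted p = 0.183). In DDX50 the ratio rested on 1.39 normalized reads or fewer in the UV− libraries.

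DDX17 and DDX5 are paralogs known from transcription and splicing. DDX17 had 15.4 and 30.0 normalized reads downstream in the UV+ libraries, against 9.74 and 8.20 in the UV− libraries. Upstream it had 67.5 and 72.5 in UV+, against 84.9 and 137 in UV−, with a ratio change of 1.80 ± 0.71 (limma unadjusted p = 0.041). KDELR3 has exons on the other strand throughout that window. DDX5 had 32.5 and 37.7 normalized reads downstream in the UV+ libraries, against 11.1 and 11.5 in the UV− libraries, a rise of 1.55 ± 0.41 (adjusted p = 0.027). Upstream it had 68.3 and 68.7 in UV+, against 64.0 and 23.8 in UV−, with a ratio change of 0.76 ± 0.76 (unadjusted p = 0.35). DDX3Y, the Y-linked copy of the translation helicase DDX3X, had 5.69 and 4.84 normalized reads downstream in the UV+ libraries, against 0 and 1.64 in the UV− libraries, few reads in a gene with a near-identical copy (ratio change 2.33 ± 0.92, limma unadjusted p = 0.04). That change was 1.11 (limma unadjusted p = 0.26) without UV− replicate 1 and 3.54 without UV− replicate 2. It was the one ratio call that edgeR did not make (unadjusted p = 0.1), and it was also lost by DESeq2 (unadjusted p = 0.1) and with a pseudocount of 5 (change 1.14, limma unadjusted p = 0.0583).

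Most ribosome-assembly helicases had more reads past the PAS in UV+ than in UV− libraries. All 9 that had a row, of 16 listed, had a positive downstream change (median 1.27), in 8 of 9 both UV+ libraries exceeded both UV− libraries, and 2 were called, DDX21 and DDX18. DDX18, a nucleolar helicase, had 25.2 and 28.1 normalized reads downstream in the UV+ libraries, against 8.35 and 8.20 in the UV− libraries, a rise of 1.57 ± 0.46 (limma adjusted p = 0.037), and upstream 65.0 and 153 in UV+, against 58.5 and 94.3 in UV−. Upstream the change was positive in 8 of the 9 (1802 of all 4208 genes), and 0 were called. The upstream median was 0.32, beside -0.24 over all genes. Both UV+ libraries exceeded both UV− libraries upstream in 3 of the 9 (28.1% of all genes) and lay below them in 1 (41.3% of all genes). Over all genes the downstream median was 0.24, 11.7% were called higher downstream, and 36.8% had both UV+ libraries above both UV− libraries there. DDX24 had the most upstream reads of the DDX genes, 299 and 331 in UV+, against 213 and 297 in UV−, but 2.44 and 9.67 downstream in UV+, against 1.39 and 1.64 in UV−. DDX56 had the largest downstream level relative to upstream of them in UV− (101% in UV+ and 55.4% in UV−). The 4 spliceosomal helicases with a row, of 11 listed, had median changes of 0.25 in the ratio, -0.75 upstream and 0.29 downstream. Over all genes these were 0.38, -0.24 and 0.24. Of the 4, 1 was higher in the ratio (10.9% of all genes), 2 fell upstream (20.7%) and 0 were called downstream. The 3 helicases of translation, export and decay with a row, of 7 listed, were DDX6, DDX19A and DDX19B, with downstream changes of -1.90, 1.16 and -1.44 and no call. DDX19A and DDX19B are near-identical neighbours, and whether reads that match both were dropped by the authors' filter on mapping quality was not tested.

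Among the 5 DHX genes 2 fell upstream, where 20.7% of all genes did, and the median ratio change was 0.27. DHX32 had 66.7 and 26.1 normalized reads upstream in the UV+ libraries, against 137.8 and 147 in the UV− libraries (a fall of 1.74 on the log2 scale, SE 0.37, limma adjusted p = 0.0035). Its UV+ libraries were apart from each other, and without UV+ replicate 2 the change was -1.08, still called. Exon on the other strand covers 212 nt of its upstream window, and exons of BCCIP 236 nt of its downstream window. DHX15, the counterpart of yeast Prp43 that takes the spliceosome apart, had 22.0 and 28.1 normalized reads upstream in the UV+ libraries, against 45.9 and 60.7 in the UV− libraries (a fall of 1.06, SE 0.36, adjusted p = 0.038). Past the PAS its conditions overlapped, with 33.3 and 53.2 in UV+, against 48.7 and 52.5 in UV−. Neither ratio was called (unadjusted p = 0.069 for DHX32 and 0.27 for DHX15). DHX30, a mitochondrial ribosome factor with the largest downstream level relative to upstream of the group in UV−, had 5.69 and 10.6 downstream in UV+, against 6.96 and 1.64 in UV−, and DHX8 and DHX37 were not called.

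**Figure D2:**
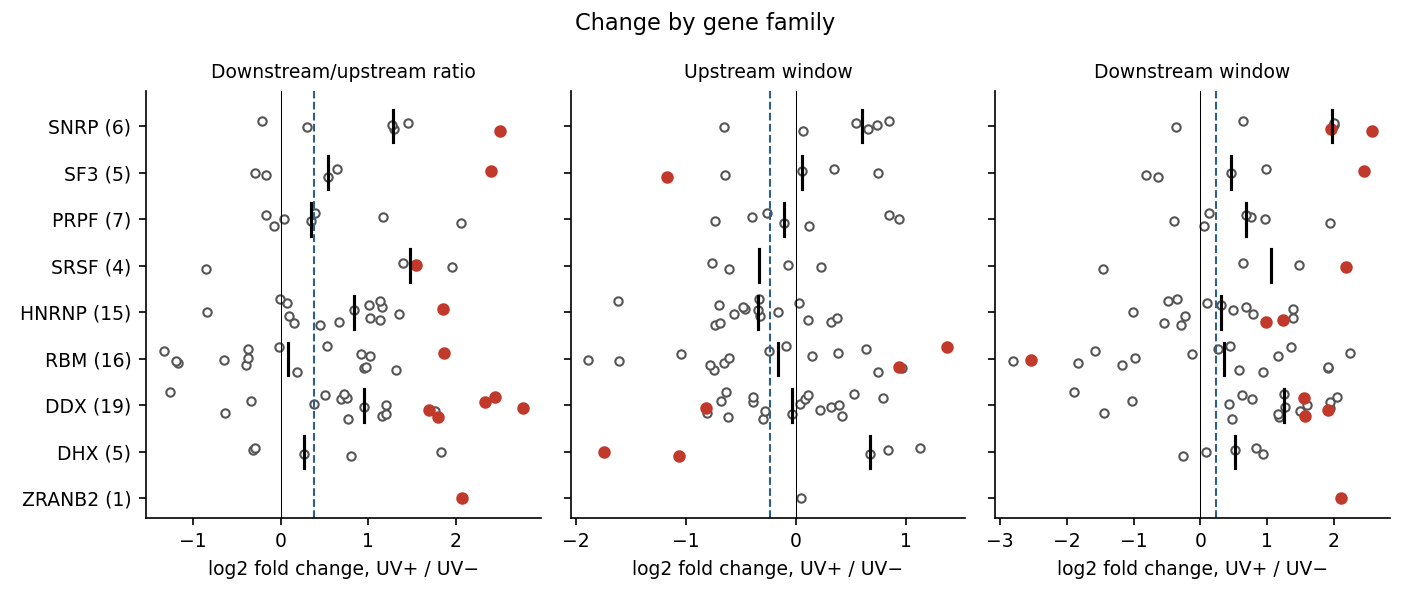
Log2 fold change (UV+ over UV−) of each of the 78 genes by name group, for the downstream/upstream ratio, the upstream and the downstream window. Filled red points passed the test (ratio, unadjusted p under 0.05; windows, adjusted p under 0.05), black bars are group medians, and the dashed line is the median of all genes (0.38, -0.24 and 0.24). Red points stand at the right in the ratio and downstream panels except RBM27, and on both sides upstream.

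Counted over the windows, upstream 2 of the 78 genes rose and 4 fell at an adjusted p under 0.05 (limma), where 11.7% of all genes rose and 20.7% fell. Downstream 10 rose and 1 fell, where 11.7% of all genes rose and 9.41% fell. The share of the 78 genes that rose downstream (12.8%) was thus close to that of all genes, and their shares of falls (5.13% upstream and 1.28% downstream) were below those of all genes. Both UV+ libraries exceeded both UV− libraries in 17 genes upstream (28.1% of all genes) and 44 downstream (36.8%), and lay below them in 30 upstream (41.3%) and 14 downstream (30.4%). Of the 11 genes called in the ratio, 4 also rose downstream (SNRPA, SF3B5, DDX21 and ZRANB2), 1 fell upstream (DDX23) and 6 were called in neither window alone. No gene of the 78 was called in both windows. By DESeq2 the downstream calls of SNRPA, SNRPB, SRSF5, HNRNPA3 and HNRNPA2B1 and the upstream calls of SF3B1 and DHX32 held and the others ended, and with TMM factors those of DDX23, DHX15 and RBM27 ended. Leaving out libraries ended most of these calls. With any 1 library left out, every downstream rise of the 78 genes lost its call, and most downstream calls over all genes were lost too. Without either UV− library every upstream call of the 78 genes was lost, as were nearly all upstream calls over all genes.

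**Figure D3:**
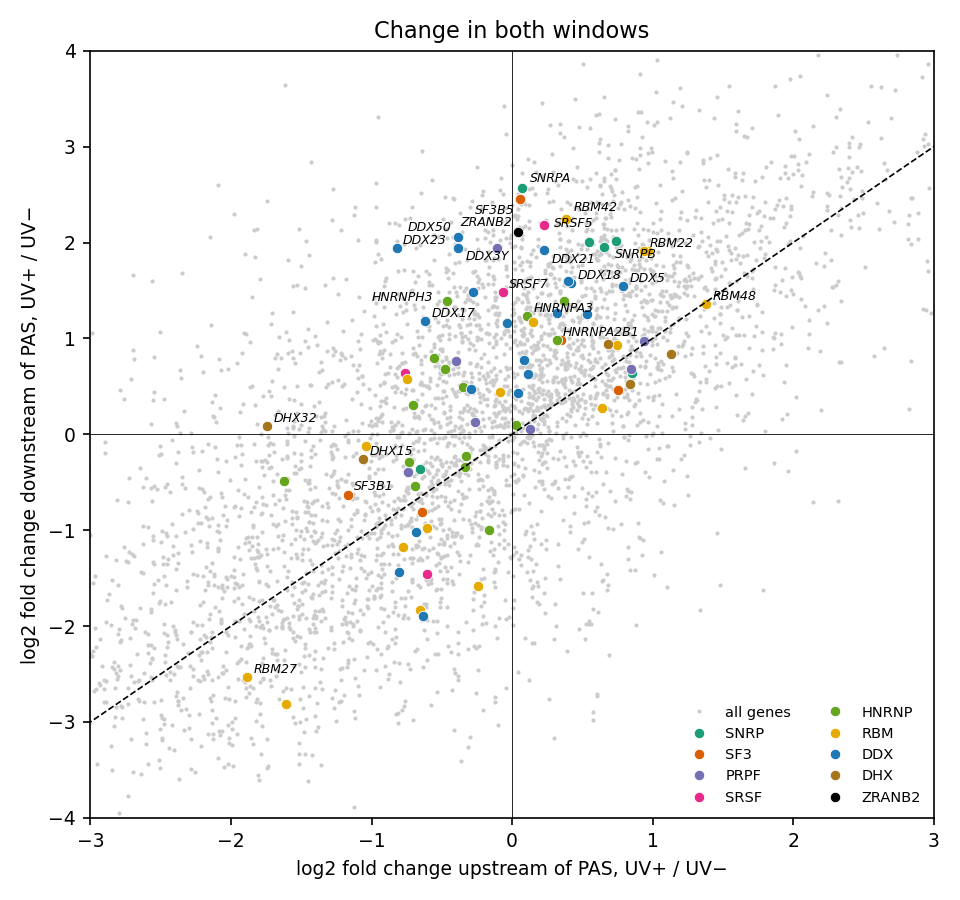
Log2 fold change downstream against that upstream of the PAS (UV+ over UV−), with all genes in grey (those beyond the axes are not drawn) and the 78 genes in color by name group. Genes called in any of the 3 measures are labelled. On the dashed line the changes are equal. A ratio change above 0 was found in 57 of the 78 genes and in 2717 of all 4208. SNRPA, SF3B5 and ZRANB2 stand high above an upstream change near 0.

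The change in each window went with gene length. Genes were split at the quartiles of all genes (7024, 19538 and 46646 nt), which put 9, 35, 25 and 9 of the 78 into the 4 length groups, short to long. Upstream the median log2 changes of these were 0.23, 0.08, -0.40 and -0.66, beside 0.51, 0.14, -0.33 and -1.56 for all genes in the same groups. Downstream they were 1.39, 0.98, 0.47 and -0.26, beside 0.92, 0.78, 0.22 and -1.52 for all genes. The genes of the longest group differed in length, with a median of 60343 nt for the 9 genes and 89543 nt for all genes there, so that their medians cannot be compared at equal length. Over the 78 genes, which share libraries and are not independent replicates, Spearman's rho of length with the change was -0.43 upstream, -0.51 downstream and -0.35 for the ratio, and over all genes it was -0.55, -0.49 and -0.05. The part of gene length in the calls was not tested.

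**Figure D4:**
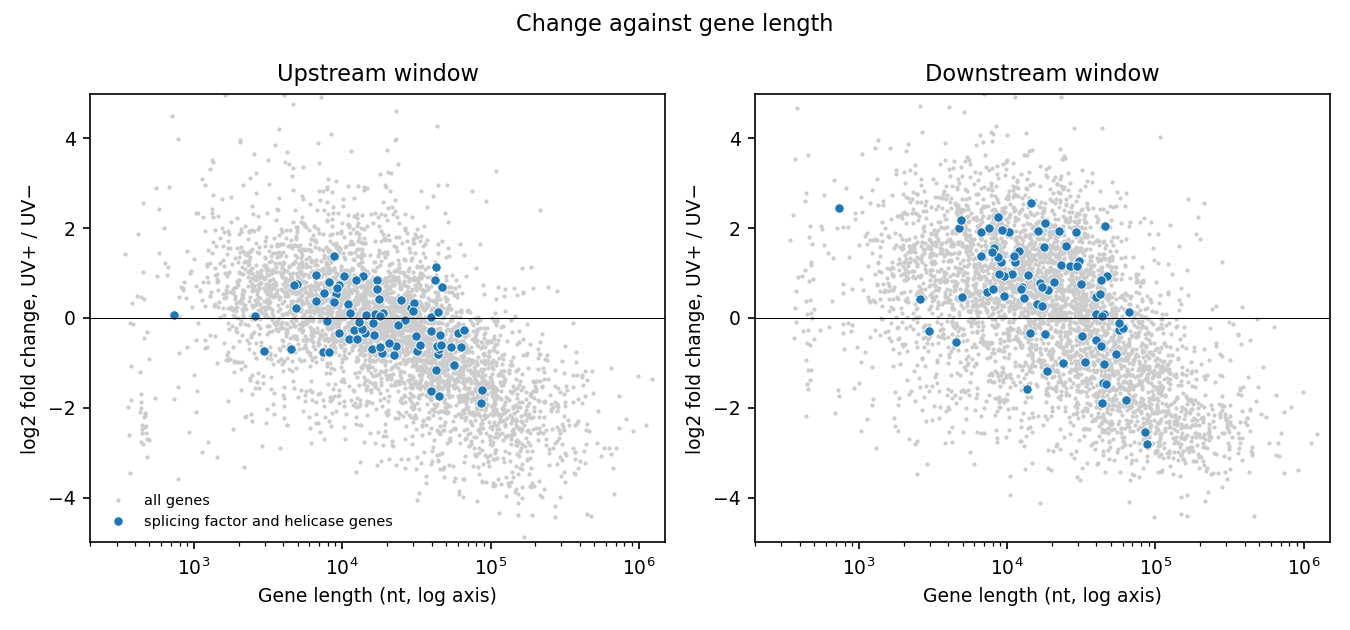
Log2 fold change (UV+ over UV−) upstream (left) and downstream (right) of the PAS against gene length on a log axis. Blue points are the 78 genes and grey points all genes within the axes. In both panels long genes stand lower, and most of the 78 lie in the middle of the length range, 35 of them between 7024 and 19538 nt.

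Where the downstream window held annotated exon, reads there need not come from RNA uncleaved at the PAS. A same-strand exon covered at least 250 nt of that window in 22 of the 78 genes, and all 500 nt in 19. None of the 11 ratio calls fell in these 22, and 11 fell in the other 56 genes, with median ratio changes of 0.11 and 0.99. Over all genes 74 of 1260 with such a window and 386 of 2945 without one were called higher. An exon on the other strand lay in the downstream window of 14 of the 78 genes, among them DDX17 and HNRNPH3, and the ends of RBM4 and RBM4B, close relatives on opposite strands, overlap.

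Of 172 listed proteins that work with the 78 genes, 85 had a row: other spliceosome proteins, splicing regulators, exon junction and export proteins, other RNA helicases, and the SMN complex that assembles snRNPs. In the ratio 13 were higher and 1 lower at an unadjusted p under 0.05 (limma), where 10.9% and 2.69% of all genes were. Upstream 5 rose and 10 fell (11.7% and 20.7% of all genes), and downstream 12 rose and 6 fell (11.7% and 9.41% of all genes). The shares in the ratio and downstream were thus near those of all genes. The median changes were 0.47 in the ratio, -0.03 upstream and 0.51 downstream, beside 0.38, -0.24 and 0.24 over all genes. Among the 33 other spliceosome proteins 6 were higher in the ratio. AQR, an intron-binding helicase of the spliceosome, averaged 24.9 ± 18.8 normalized reads upstream in UV+ and 135.7 ± 22.6 in UV− (SD, n = 2 each), a log2 change of -2.61 by limma. CWC15, another spliceosome protein, averaged 31.7 ± 5.8 in UV+ and 7.90 ± 6.54 in UV− (change 2.09).

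Of the 27 other splicing regulators 6 fell upstream and 1 rose, a share of falls near that of all genes (20.7%). SRPK2, a kinase of SR proteins, averaged 0.81 ± 1.15 normalized reads upstream in UV+ and 34.3 ± 7.2 in UV− (change -4.43), and SCAF11 and DYRK1A fell by 2.08 and 2.73 on the log2 scale. In the exon junction and export list (10 genes) THOC6, a subunit of the THO complex that couples transcription to export, rose to 29.4 ± 3.6 in UV+, against 0.82 ± 1.16 in UV−, and UPF3B, of nonsense-mediated decay, fell by 1.79. WDR77, of the complex that methylates Sm proteins, averaged 43.2 ± 0.95 in UV+ and 9.01 ± 6.94 in UV− (change 2.34). The adjusted p (limma) was 0.018 for CWC15 and 0.0096 or less for each other gene of this list given with a rise or fall. Of those that fell, AQR, SRPK2, SCAF11 and DYRK1A are 71488 to 272557 nt long and UPF3B 19003 nt. THOC6, WDR77 and CWC15, which rose, are 3725 to 10990 nt long. The part of gene length in these changes was not tested.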

How the data were processed

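According to the submitters' processing notes, reads were trimmed with cutadapt, aligned to hg19 with TopHat2, filtered with SAMtools and counted with featureCounts in R 3.4.0. The strand setting of the count was not given in the sources used here. The deposited signal values are reads in the 500 nt upstream and downstream of each PAS that the authors divided by 1 size factor per library. With the size factors undone, 100% of the values were whole reads to within 1e-06 of a read. The authors' fold changes, standard errors, Wald statistics and p-values hold their own comparison and were not used. UV+ columns were matched to libraries through the sample descriptions. In 3 rows the name and position cells were shifted and 3 symbols had turned into dates, and these rows stayed in the tests without a name.

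The downstream/upstream ratio, the upstream and the downstream window were tested over all 4208 rows with limma 3.58.1 (R 4.3.3, variance trend). A pseudocount of 1 was added before taking log2, and p-values were adjusted by Benjamini-Hochberg. Ratio calls used the study's threshold, an unadjusted p under 0.05, and also the adjusted p. Window calls used an adjusted p under 0.05. Changes on this scale understate those of low genes. No filter was applied beyond that of the table, in which each window of the 78 genes held 10 or more reads over the pair of libraries of 1 or both conditions. Genes with fewer UV− reads downstream, such as SNRPA, SF3B5, SNRPD2 and SNRPF, passed it there through UV+ alone. Alternatives were pseudocounts of 0.5 and 5, a mean of at least 10, edgeR 4.0.16 and DESeq2 1.42.0 on the recovered reads, leaving out each library, a replicate block, TMM factors, and limma with no variance trend. A variance trend on reads and the ratio counts without genes with an exonic downstream window were chosen after seeing the data. Exons and sequence came from GENCODE 44 and the GRCh37 primary assembly, the build of the table, read with Python 3.11.15.

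The genes, the lists and the rule for the names were chosen with earlier results of these data known. Named were ZRANB2, every gene called in the ratio, the 6 called genes with the smallest p in each direction of each window, the gene with the most upstream reads and that with the largest UV− ratio in each name group, members of counts of 5 or fewer, and up to 3 genes per other list, some of which are not reported here. Further genes were named after their values were seen, to complete a group.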

Additional observations from a re-analysis of the deposited data

How the results depend on the processing

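Of the 28 calls of named genes, each tried under 12 or 13 alternatives, 208 of 344 values kept the call, 136 lost it in the same direction and 0 changed direction. The 11 genes higher in the ratio were 7 with a pseudocount of 0.5, 17 with a variance trend on reads, which shares 10 of them, 11 without genes with an exonic downstream window, and 1 to 11 when 1 library was left out, with 0 to 3 lower. Over all 4208 genes, 412 were higher with a pseudocount of 0.5 and 486 with that trend, beside 460 in the reported test. At an adjusted p, edgeR called 1 and DESeq2 2 higher, beside 38 of 4208 and 37 of 1516 over all genes. Upstream, 2 genes rose and 4 fell in the reported test, and the counts were 0 and 2 by DESeq2, 6 and 2 with TMM factors, and 1 and 0 by limma without the trend. Over all 4208 genes the same counts were 492 and 872, 322 and 562, 648 and 720, and 241 and 574, in that order. The falls were 9 with a pseudocount of 5 (1013 of all genes) and 7 by edgeR (889 of all genes). With 1 library left out, 0 to 1 rose and 0 to 5 fell upstream. Downstream, 10 rose and 1 fell, and the counts were 5 and 0 by DESeq2 and 2 and 0 by limma without the trend. Over all genes these were 493 and 396 of 4208, 205 and 126 of 2495, and 239 and 216 of 4208. The fall became 0 with a pseudocount of 0.5 or TMM factors (314 and 319 of all genes). It became 2 with a pseudocount of 5 or by edgeR (486 and 442 of all genes). With any 1 library left out, no downstream rise kept its call, and most downstream calls over all genes were lost too. The median change of the ratio was 0.45 with a pseudocount of 5. The upstream median turned to 0.093 with TMM factors. The downstream median was 0.53 with a pseudocount of 5, 0.82 by edgeR, 0.84 by DESeq2 and 0.87 with TMM factors. The causes of these shifts were not tested. Where 1 library of a condition remains, it is assumed to vary like the other condition.

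The replicate number was not stated to pair libraries, and the deviations of same-numbered libraries correlated at r = 0.033 over 3343 genes. With the replicate number as a block, 9 genes were higher in the ratio (8 shared, without DDX17, DDX21 and SRSF7), beside 464 of all 4208 genes. Upstream 4 rose and 12 fell (569 and 985 of all genes), and downstream 14 rose and 3 fell (657 and 556 of all genes).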
